A study of Mus musculus with 9 samples.

Results

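The growth plate loop formed by Indian hedgehog and parathyroid hormone-related protein was described in mouse limb cells of the Shox2 lineage. Its 3 genes, Ihh, Pthlh and Pth1r, were taken by symbol from an expression table of 24102 rows, and each matched 1 row. RNA was sequenced from green cells sorted out of digested limbs of E12.5 embryos. Mutant cells were Shox2(Cre/-);Rosa(mTmG) and control cells Shox2(Cre/+);Rosa(mTmG). Every sorted sample thus carried Cre at 1 Shox2 allele and the mTmG reporter, which turns from red to green membrane fluorescence after Cre acts. Controls were therefore heterozygous for Shox2, a homeobox gene of the proximal limb. The labels list 4 mutant samples, 3 control samples and 2 wild-type whole limbs. The table holds 1 mutant and 1 control column for each of 3 litters, while litter 1 has 2 mutant samples, and no source used here says how its column was made. Whole limbs were not analysed here. The number of embryos behind a column and the part of Shox2 that the alleles remove are not in the labels. The reporter marks cells by past Cre activity, so marked cells need not express Shox2 at the time of sorting.

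In cartilage, Ihh is secreted by prehypertrophic chondrocytes, binds the receptor Ptch1 and so frees Smo to activate the Gli transcription factors. Ihh raises Pthlh in the periarticular cells at the ends of the bone. The Pthlh product, PTHrP, acts on the receptor encoded by Pth1r in proliferating and prehypertrophic chondrocytes and holds back their hypertrophy, which in turn limits Ihh. Ihh also directs bone collar formation in the perichondrium.

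In RefSeq (GRCm38.p6) Ihh lies on chromosome 1, Pthlh on chromosome 6 and Pth1r on chromosome 9, each on the minus strand. Reads were handled on mm9, so these positions are not those of the table. RefSeq gives 1 promoter window for Ihh, 1 for Pthlh and 3 for Pth1r, each 250 bases before to 50 bases after a start, and the table holds a single value per gene over all starts. The windows were searched on both strands for TAATTA, a core of many homeodomain sites that reads the same on both strands, for the RUNX core TGTGGT and for the GLI site GACCACCCA. These were present in 5.29%, 16.8% and 0.253% of 32851 mouse promoter windows. The Ihh and Pthlh windows held 0 matches to any of these motifs, and 1 of the 3 Pth1r windows held 1 TAATTA. The Ihh window, chr1:74951623-74951922, is shown because Ihh is the gene of the loop with the lowest values in the mutants, and the Pth1r window, chr9:110747096-110747395, because it holds the match, in capitals. Both are written 5′ to 3′ on the minus strand. No binding data were analysed, and a match is only a run of letters.
Ihh: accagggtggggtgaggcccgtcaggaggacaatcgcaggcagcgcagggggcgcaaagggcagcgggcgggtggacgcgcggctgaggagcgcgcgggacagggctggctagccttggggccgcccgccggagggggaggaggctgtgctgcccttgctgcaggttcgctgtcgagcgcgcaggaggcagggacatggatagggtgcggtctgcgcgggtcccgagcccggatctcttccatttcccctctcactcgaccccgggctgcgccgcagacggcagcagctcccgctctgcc
Pth1r: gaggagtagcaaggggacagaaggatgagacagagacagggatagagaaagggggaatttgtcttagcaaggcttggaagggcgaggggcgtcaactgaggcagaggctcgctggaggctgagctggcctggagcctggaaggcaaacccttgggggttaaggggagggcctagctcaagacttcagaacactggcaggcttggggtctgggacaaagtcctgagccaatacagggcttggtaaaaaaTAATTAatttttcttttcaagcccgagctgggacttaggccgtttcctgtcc

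Values are in FPKM, fragment counts scaled to transcript length and to the mapped fragments of a library, from 6 columns. Depth is unknown, so no interval for counting error can be given. Shox2 was at 16.7, 18.3 and 96.9 FPKM in the mutants of litters 1, 2 and 3, against 217, 222 and 210 FPKM in the controls, so the litter 3 mutant kept 46.2% of its control level, against 7.68% and 8.25% in litters 1 and 2. Prrx1, a marker of limb mesenchyme, was between 106 and 246 FPKM in all columns. The Y-linked gene Eif2s3y was listed at 0 FPKM in the litter 2 mutant and at 14.4 to 23.9 FPKM in the others. The X-linked gene Xist was at 36.8, 178 and 68.4 FPKM in the mutants of litters 1, 2 and 3, against 12.1, 34.6 and 73.0 FPKM in the controls. Sex composition and genotype thus cannot be told apart in litter 2, and may not be separable in litter 1. The litter 2 control stood apart in surface ectoderm, endothelial and muscle markers. It was not the highest column for nerve and glia, red cell or leukocyte markers. Its summed level was 34.0 FPKM for 8 surface ectoderm markers, 15.2 FPKM for 7 endothelial markers and 73.9 FPKM for 8 muscle markers, above the highest of the other 5 columns at 17.9, 6.54 and 48.3 FPKM. Endothelial markers summed to 5.18 to 5.25 FPKM in mutants and 5.59 to 15.2 FPKM in controls, lower in mutants without overlap. Of the 7 genes, 3 were also lower without overlap, Kdr, Emcn and Esam, named after their values were seen. This held for 5.03% of all tested rows, which did not include Emcn and Esam. The other endothelial genes overlapped, each higher in the mutant of 1 litter. Muscle markers summed to 45.3 to 48.3 FPKM in mutants and 27.2 to 73.9 FPKM in controls, and surface ectoderm markers to 13.97 to 17.9 FPKM in mutants and 16.7 to 34.0 FPKM in controls. Nerve and glia markers summed to 61.5 to 96.6 FPKM in mutants and 47.6 to 92.4 FPKM in controls. Red cell markers summed to 229 to 715 FPKM in mutants and 328 to 595 FPKM in controls, and leukocyte markers to 9.95 to 18.05 FPKM in mutants and 11.6 to 15.5 FPKM in controls. No matched marker was at 0 in every column.

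Ihh, the hedgehog ligand of the loop, was at 0.526, 1.10 and 2.84 FPKM in the mutants of litters 1, 2 and 3, against 2.59, 2.52 and 4.37 FPKM in the controls. The mutant was the lower column in each of the 3 litters, as it was in 22.3% of all tested rows, but the groups overlapped because the litter 3 mutant lay above the controls of litters 1 and 2. Mutant levels were 20.3%, 43.4% and 65.0% of the litter's control. Means were 1.49 ± 1.20 FPKM in mutants and 3.16 ± 1.05 FPKM in controls (SD, n = 3 each). The log2 change was -0.82 (SE 0.36, 95% interval -1.70 to 0.05) and missed the threshold of 0.05 over all rows (limma adjusted p = 1.00). The exact two-sided permutation p was 0.3, where 3 columns against 3 cannot give less than 0.1. In a fit with litter as a block, the adjusted p was 0.189, again past no threshold, while the unadjusted limma p was 0.00294. Without the litter 2 pair, the blocked fit gave -0.86 and passed (limma adjusted p = 9.81e-05). That fit of 4 columns has 1 residual degree of freedom per row before moderation, and it called 4.34% of all 12314 rows, 534 in all. The log2 change was -0.93 without the litter 2 control, -0.52 without the litter 1 mutant and -1.28 with a pseudocount of 0.1 in place of 1. Over all alternatives the adjusted p for Ihh ran from 9.81e-05 to 1.00. Summed endothelial markers were also lower in mutants, at 5.25, 5.19 and 5.18 FPKM in litters 1, 2 and 3, against 5.59, 15.2 and 6.54 FPKM. Their part in the Ihh value was not tested. In such bulk samples, fewer Ihh-producing cells and less Ihh RNA per cell cannot be told apart.

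**Figure D1:**
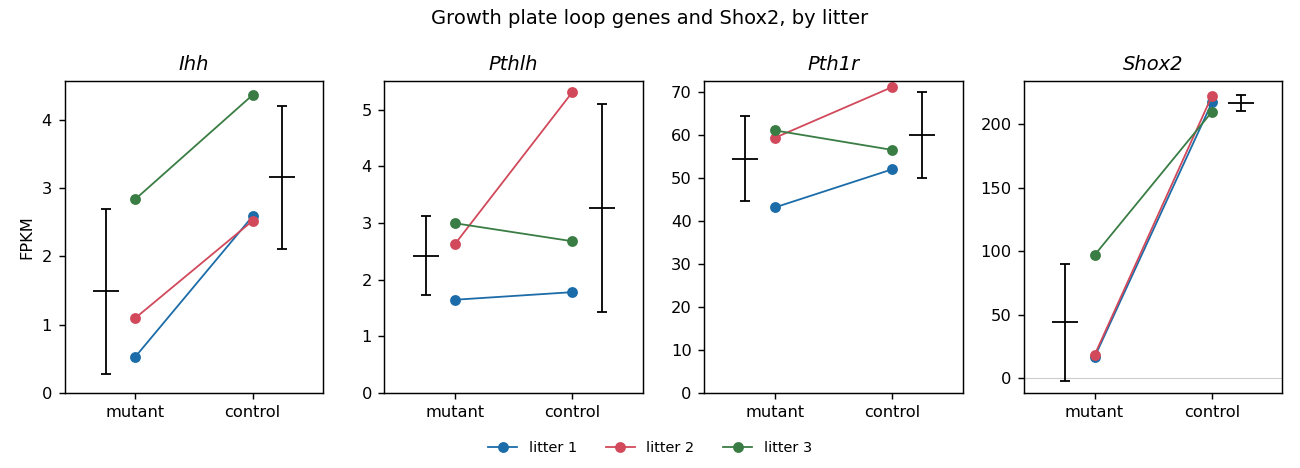
Expression in FPKM of Ihh, Pthlh, Pth1r and Shox2 in mutant and control columns, each panel with its own linear axis. Points are columns, coloured lines join a litter, and black marks give the mean and SD of 3 columns per group. Ihh is lower in the mutant of each litter, between 0.526 and 2.84 FPKM against 2.52 to 4.37 FPKM in controls, while Pthlh and Pth1r differ between litters in direction.

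Pthlh, which encodes PTHrP, was at 1.64, 2.63 and 2.99 FPKM in the mutants of litters 1, 2 and 3, against 1.78, 5.31 and 2.68 FPKM in the controls. The control of litter 2 was far above the other columns, and all other values lay between 1.64 and 2.99 FPKM. The mutant was lower in litters 1 and 2 and higher in litter 3, at 92.5%, 49.5% and 112% of its control. Means were 2.42 ± 0.698 FPKM in mutants and 3.25 ± 1.84 FPKM in controls (SD, n = 3 each). The log2 change was -0.25 (SE 0.33, 95% interval -1.04 to 0.54) and missed the threshold (limma adjusted p = 1.00, exact two-sided permutation p = 0.6). Without the litter 2 control the direction turned, with a log2 change of 0.077. The change was -0.51 without the litter 1 control, -0.07 without the litter 1 mutant and -0.01 with column weights. The litter 2 control is also the one with the highest summed surface ectoderm, endothelial and muscle markers, whose part in the Pthlh value was not tested.

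Pth1r, the receptor gene, was at 43.1, 59.3 and 61.0 FPKM in the mutants of litters 1, 2 and 3, against 52.0, 71.1 and 56.5 FPKM in the controls. The groups overlapped, and the mutant was lower in litters 1 and 2 and higher in litter 3, at 82.9%, 83.4% and 108% of its control. Means were 54.5 ± 9.89 FPKM in mutants and 59.9 ± 9.996 FPKM in controls (SD, n = 3 each). The log2 change was -0.14 (SE 0.20, 95% interval -0.61 to 0.34) and missed the threshold (limma adjusted p = 1.00, exact two-sided permutation p = 0.6). It was 0.019 without the litter 1 mutant, -0.0091 without the litter 2 control and 0.041 with column weights, so its sign rests on single columns. The interval leaves room for a change of either sign.

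**Figure D2:**
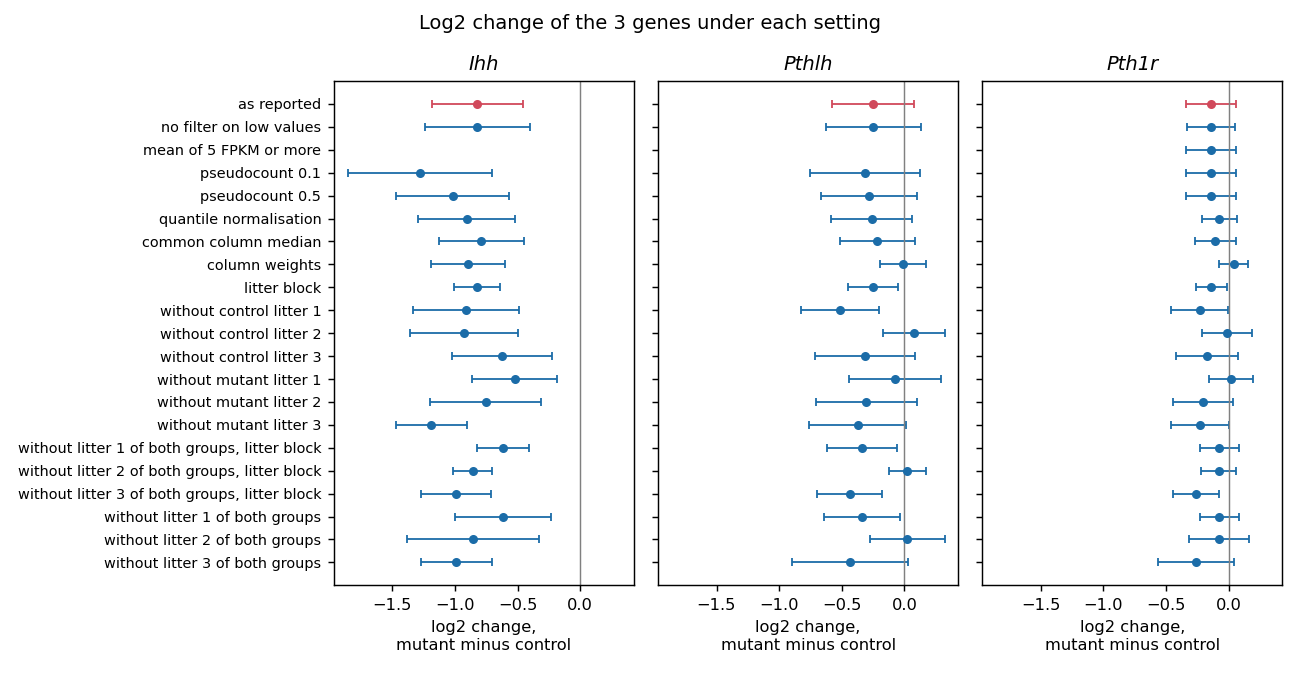
Log2 change, mutant minus control, with its SE for Ihh, Pthlh and Pth1r under the reported fit, in red, and each alternative setting, in blue. Ihh lies between -1.28 and -0.52 under all settings that kept it, Pthlh between -0.51 and 0.077, and Pth1r between -0.26 and 0.041.

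Per length, the receptor was by far the most abundant transcript of the loop. Pth1r exceeded Ihh 81.9-, 54.1- and 21.5-fold in the mutants of litters 1, 2 and 3, against 20.1-, 28.2- and 12.9-fold in the controls. It exceeded Pthlh by 20.4- to 26.2-fold in mutants and by 13.4- to 29.2-fold in controls. Between 86.8% and 90.0% of the tested rows lay below Pth1r in mutants, and between 89.1% and 91.1% in controls. For Ihh the share below it was 0.414%, 2.14% and 14.5% in the mutants of litters 1, 2 and 3, against 13.8%, 12.49% and 21.4% in the controls. The order of the 2 ligands was not fixed. The ratio of Ihh to Pthlh was 0.320, 0.417 and 0.948 in mutants, so Pthlh was the higher ligand in each mutant column, against 1.46, 0.475 and 1.63 in controls, where Ihh was the higher in litters 1 and 3. Given their spread over columns, the levels of Ihh and Pthlh are not separated in either group.

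Col2a1, the main collagen gene of cartilage, offers a scale for chondrocyte RNA and was chosen for this after its values were seen. It was at 418, 703 and 580 FPKM in mutants, against 464, 448 and 493 FPKM in controls. Ihh per 1000 FPKM of Col2a1 was 1.26, 1.56 and 4.89 in the mutants of litters 1, 2 and 3, against 5.59, 5.63 and 8.87 in the controls. On this scale the highest mutant lay below the lowest control, while the unscaled values overlapped. The share of all rows that part without overlap on this scale was not counted. Pth1r per 1000 FPKM of Col2a1 was 103, 84.3 and 105 in mutants, against 112, 159 and 115 in controls. These ratios were again lower in each litter and without overlap, while unscaled Pth1r overlapped and was higher in the mutant of litter 3. Pthlh per 1000 FPKM of Col2a1 was 3.94, 3.73 and 5.16 in mutants, against 3.83, 11.8 and 5.43 in controls, and the groups overlapped. No test was run on these ratios, and the higher Col2a1 in the mutants of litters 2 and 3 enters each of them. Of 14 cartilage matrix genes, 4 were lower and 1 higher in the mutants of all 3 litters, against 22.3% and 15.7% of all tested rows. Another scale gene could give other ratios and another overlap, and none was used here.

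The other ligands of both families were at or near 0. The hedgehog ligands Shh, of the posterior limb margin, and Dhh, of Schwann cells, were at most 0.0932 and 0.0712 FPKM in mutants and at most 0.266 and 0.0950 FPKM in controls. Pth, the parathyroid hormone gene, was listed at 0.247 FPKM in the litter 1 mutant and at 0 in the other columns. Pth2, another ligand of the family, was listed at 0.113 FPKM in the litter 2 mutant and at 0 elsewhere. Pth2r, the receptor related to Pth1r, was at 0.173, 0.348 and 0.156 FPKM in mutants, against 0.0712, 0.326 and 0.223 FPKM in controls. These genes did not enter the test, which required 1 FPKM or more in at least 3 columns.

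Over the 12314 tested rows limma called 0, or 0% of rows, and at an unadjusted p under 0.05 there were 167 lower and 272 higher rows in the mutants, 1.36% and 2.21%. With litter as a block it again called 0% at the adjusted threshold, with 6.29% of rows lower and 5.34% higher at an unadjusted p under 0.05. The mutant was lower in 3 of 3 litters in 22.3% of rows and higher in 15.7%, and groups parted without overlap in 5.03% of rows lower and 4.22% higher. Ihh was 1 of the 2748 rows that were lower in 3 of 3 litters. In 652 of those, Ihh among them, the difference was greatest in litter 1 and smallest in litter 3. The median log2 change of all tested rows was -0.04.

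The 19 genes for hedgehog release, reception and response were all tested, with a median log2 change of -0.09. In the mutants of all 3 litters 5 were lower and 4 higher, against 22.3% and 15.7% of all rows. Without overlap 3 were lower and 2 higher, against 5.03% and 4.22%. Ptch1, the hedgehog receptor and itself a target of the pathway, was at 13.0, 15.2 and 17.9 FPKM in mutants, against 23.3, 21.4 and 24.8 FPKM in controls, without overlap. Like Ihh, it was lower in the mutant of each litter. Gli1, a target and activator chosen here after its values were seen, was at 6.75, 20.2 and 19.7 FPKM in mutants and 13.6, 33.7 and 30.0 FPKM in controls. It too was lower in each litter, but the litter 1 control lay below the mutants of litters 2 and 3, so the groups overlapped. Hhip, a decoy receptor induced by hedgehog signals and likewise chosen after its values were seen, was at 1.69, 2.59 and 3.09 FPKM in mutants and 2.54, 4.29 and 2.87 FPKM in controls, higher in the mutant of litter 3.

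The log2 changes were -0.57 (SE 0.16) for Ptch1, -0.74 (SE 0.49) for Gli1 and -0.29 (SE 0.23) for Hhip. On the other side, the hedgehog co-receptor Boc was at 63.8, 77.3 and 67.3 FPKM in mutants and 55.4, 43.4 and 51.3 FPKM in controls, a log2 change of 0.47 (SE 0.15). Gli3, the main repressor of hedgehog targets in the limb, was at 26.8, 29.6 and 31.2 FPKM in mutants and 23.9, 19.4 and 25.3 FPKM in controls, a log2 change of 0.35 (SE 0.15). The co-receptor Cdon was at 67.3, 67.4 and 58.0 FPKM in mutants and 61.8, 39.6 and 52.3 FPKM in controls. Boc, Gli3 and Cdon were each higher in 3 of 3 litters, the first 2 without overlap. None of these genes passed over all rows with all 6 columns, with or without the block. Ptch1 (limma adjusted p = 0.00105) and Gli1 (5.39e-05) passed in the blocked fit without the litter 2 pair, like Ihh and 4.34% of all rows. In the blocked fit of all 6 columns, the smallest limma adjusted p in the list was 0.0848, for Gli1.

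**Figure D3:**
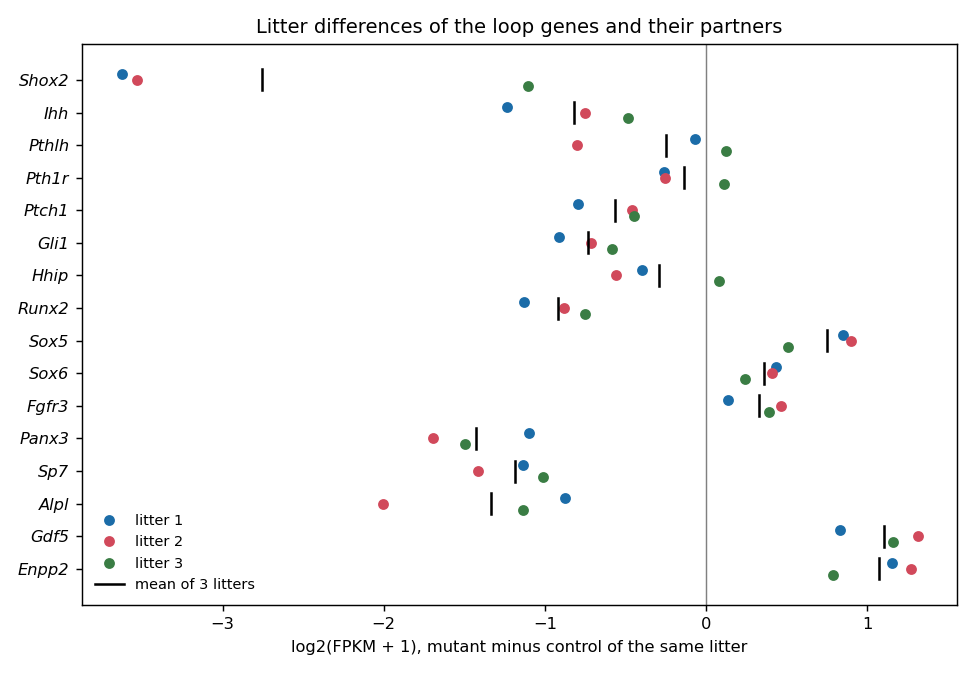
Difference in log2(FPKM + 1), mutant minus control of the same litter, for Shox2, the 3 loop genes and selected partners. Coloured points are the 3 litters and black bars their mean. Ihh, Ptch1, Gli1, Runx2, Panx3, Sp7 and Alpl lie left of 0 in each litter. Panx3 entered the test through the 3 controls only, so it had to lie there. Gdf5, Enpp2, Sox5, Sox6 and Fgfr3 lie right of 0, and Pthlh, Pth1r and Hhip fall on both sides.

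Genes that carry the PTH1R signal inside the cell, such as the G protein, cAMP and salt-inducible kinase genes, had 21 tested members with a median log2 change of -0.04, the value of all rows. In this list 5 were lower and 4 higher in all 3 litters, against 22.3% and 15.7% of all rows. Without overlap 1 was lower and 1 higher, against 5.03% and 4.22%, so these counts were near the shares of all rows. Sik1, a salt-inducible kinase that PTHrP signalling inhibits, was at 8.52, 8.66 and 9.52 FPKM in mutants, against 11.6, 15.1 and 9.89 FPKM in controls, the member lower without overlap. Pde4d, which degrades cAMP, was at 6.13, 5.52 and 5.09 FPKM in mutants and 4.27, 4.67 and 4.59 FPKM in controls, the member higher without overlap. Zfp521, a zinc-finger factor induced by PTHrP in chondrocytes, was at 47.3, 44.6 and 43.1 FPKM in mutants and 58.0, 45.1 and 46.1 FPKM in controls. The transcription factor gene Creb1 was at 29.6, 19.8 and 20.6 FPKM in mutants and 24.3, 17.3 and 18.9 FPKM in controls. Sik2 was at 7.41, 7.20 and 6.02 FPKM in mutants and 9.19, 2.998 and 6.31 FPKM in controls, with a log2 change of 0.23 that was -0.14 without the litter 2 control. None passed the threshold.

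Among factors known to regulate Ihh in cartilage, 18 of 20 matched genes were tested, with a median log2 change of -0.04. Of these, 5 were lower and 7 higher in all 3 litters, against 22.3% and 15.7% of all rows. Runx2, a transcription factor that activates Ihh and drives chondrocyte hypertrophy, was at 3.62, 10.4 and 11.1 FPKM in mutants, against 9.10, 20.0 and 19.3 FPKM in controls. It was lower in each litter, while the litter 1 control lay below the mutants of litters 2 and 3, so the groups overlapped. Its log2 change was -0.92 (SE 0.46, limma adjusted p = 1.00 unblocked and 0.0663 blocked by litter). Sox5 and Sox6, partners of Sox9 in cartilage, were higher without overlap. Sox5 was at 10.1, 12.7 and 10.2 FPKM in mutants and 5.19, 6.33 and 6.86 FPKM in controls. Sox6 was at 11.3, 9.60 and 9.73 FPKM in mutants and 8.10, 6.98 and 8.09 FPKM in controls. Fgfr3, a receptor that restrains chondrocyte proliferation and Ihh, was at 16.2, 21.1 and 20.4 FPKM in mutants and 14.6, 15.1 and 15.3 FPKM in controls. Bmpr1b, a BMP receptor of early cartilage, was at 9.04, 10.5 and 9.26 FPKM in mutants and 6.18, 7.92 and 8.45 FPKM in controls. Fgfr3 and Bmpr1b were also higher without overlap, so 4 of 18 members of this list were, against 4.22% of all rows, and 0 were lower without overlap, against 5.03%. Runx2 (limma adjusted p = 6.5e-07) and Sox5 (0.00032) passed in the blocked fit without the litter 2 pair, as did 4.34% of all rows.

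The loop acts on the step to hypertrophy. Col10a1 and Mmp13, which define terminal hypertrophic cartilage, were at most 0.157 and 0.388 FPKM in any column, the second listed at 0 in the other 5 columns, and were not tested. Of the hypertrophic zone and bone collar list, 7 genes entered the test. Panx3 entered through the 3 controls only, so it had to be lower in mutants and is left out of the counts that follow. Of the other 6, 4 were lower and 1 higher in all 3 litters, against 22.3% and 15.7% of all rows, with a median log2 change of -0.50, or -0.58 with Panx3. Panx3, a channel of prehypertrophic chondrocytes and osteoblasts, was at 0.105, 0.147 and 0.333 FPKM in mutants, against 1.37, 2.71 and 2.75 FPKM in controls. Sp7, the osteoblast factor osterix, was at 0.921, 1.54 and 2.15 FPKM in mutants, against 3.22, 5.78 and 5.34 FPKM in controls. Alpl, which encodes alkaline phosphatase, was at 1.04, 1.22 and 1.17 FPKM in mutants, against 2.74, 7.91 and 3.76 FPKM in controls. Spp1, the gene of osteopontin, was at 1.21, 1.85 and 0.920 FPKM in mutants and 1.91, 2.96 and 2.48 FPKM in controls. Sp7, Alpl and Spp1 were lower without overlap, against 5.03% of all rows, and Vegfa, an angiogenic factor, was higher without overlap, against 4.22%. Vegfa was at 67.8, 124 and 82.1 FPKM in mutants and 39.4, 59.7 and 59.2 FPKM in controls. At an unadjusted blocked p under 0.05 there were 4 lower and 1 higher of the 6, against 6.29% and 5.34% of all rows. The smallest limma adjusted p with the block was 0.0643, so none passed with all 6 columns. In the blocked fit without the litter 2 pair Sp7, Alpl, Spp1 and Vegfa passed, as did 4.34% of all rows. The list's median was 0.01 when only its members averaging at least 5 FPKM were kept, which were Vegfa, Phex and Col1a1. Sp7, Alpl, Spp1 and Panx3 fell below that level.

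Cartilage matrix genes had a median log2 change of 0.07 and a mean of -0.09, of opposite sign, over 14 tested genes. Of these, 4 were lower and 1 higher in all 3 litters, against 22.3% and 15.7% of all rows. Without overlap there were 0 either way, against 5.03% lower and 4.22% higher. Comp, a matrix protein of cartilage and tendon, was at 1.14, 1.77 and 2.26 FPKM in mutants and 2.22, 5.69 and 3.96 FPKM in controls. The row 3110079O15Rik, an older name of Snorc, a chondrocyte membrane proteoglycan, was at 0.664, 2.02 and 3.003 FPKM in mutants and 2.23, 7.70 and 7.53 FPKM in controls. The matrilin genes Matn1 and Matn4 had log2 changes of -0.49 (SE 0.28) and -0.41 (SE 0.25), while Matn3 had 0.52 (SE 0.27). The 9 tested genes of the periarticular and joint zone, where Pthlh is made, had a median log2 change of 0.06. Of these, 1 was lower and 3 higher in all 3 litters, against 22.3% and 15.7% of all rows. The joint ligand gene Gdf5 was at 44.1, 49.0 and 47.0 FPKM in mutants, against 24.3, 19.2 and 20.5 FPKM in controls. Enpp2, which encodes autotaxin, was at 40.3, 36.8 and 28.4 FPKM in mutants, against 17.5, 14.7 and 16.0 FPKM in controls. These 2 were higher without overlap, against 4.22% of all rows. The BMP antagonist gene Nog, at 9.19, 16.5 and 11.8 FPKM in mutants and 6.001, 9.55 and 7.74 FPKM in controls, was higher in each litter with overlap. The joint-associated Wnt genes Wnt4 and Wnt9a had log2 changes of -0.34 (SE 0.30) and -0.24 (SE 0.24). None passed with all 6 columns and no weights, and Gdf5 (limma adjusted p = 0.0304) passed with column weights. In the blocked fit without the litter 2 pair Comp, 3110079O15Rik, Matn1, Matn4, Gdf5, Enpp2 and Nog passed, as did 4.34% of all rows. These genes had been named for the smallest p of their lists in these same data.

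**Figure D4:**
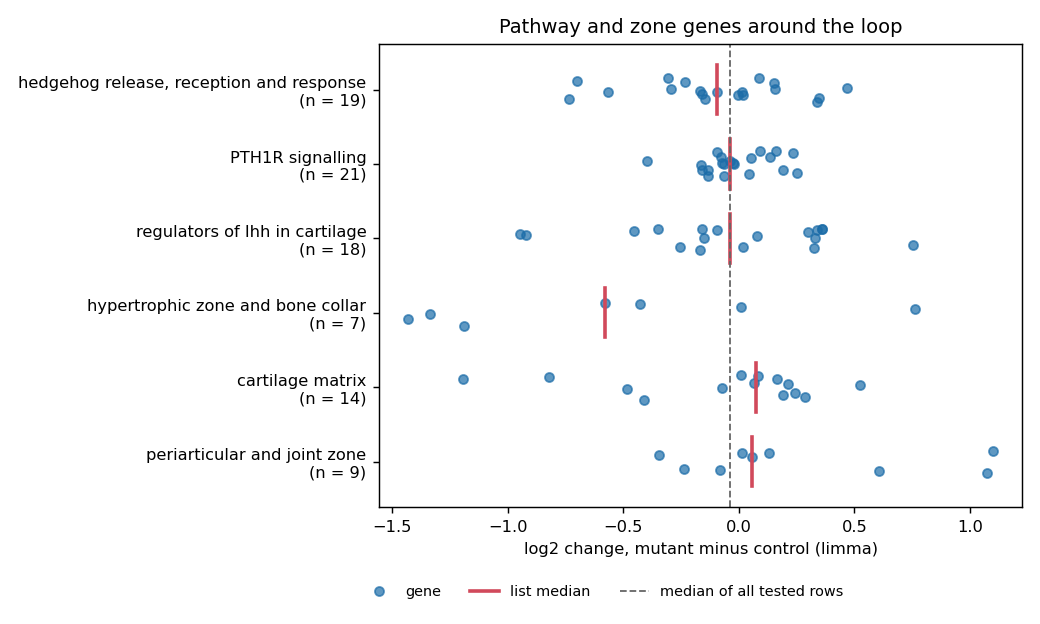
Log2 change, mutant minus control, of each tested gene in 6 lists around the loop, with the list median in red and the median of all tested rows, -0.04, as a dashed line. The hypertrophic zone and bone collar list has its median at -0.58 with Panx3 included, and the other medians lie between -0.09 and 0.07.

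By the 3 litter differences, the rows nearest to Ihh among 11245 rows averaging at least 2 FPKM were Nr4a1, Wif1 and Runx2, at Euclidean distances of 0.214, 0.315 and 0.315 in log2 units. Nr4a1, an immediate early nuclear receptor gene, had differences of -1.11, -0.62 and -0.60 in litters 1, 2 and 3. Wif1, a secreted Wnt inhibitor of cartilage, had -0.93, -0.76 and -0.42, and Runx2 -1.13, -0.88 and -0.75, against -1.23, -0.75 and -0.48 for Ihh. By Pearson correlation of log2 values over the 6 columns, the nearest to Ihh were Tmem127 at 0.997, Calr at 0.994 and Zfpl1 at 0.994, and 26 rows reached 0.95. These columns share litters and scaling, and 6 points allow high values in many rows.

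Pthlh and Pth1r were more like each other than like Ihh over the 6 columns. Their correlation was 0.926, against 0.4003 for Ihh with Pthlh and 0.538 for Ihh with Pth1r. The nearest rows to Pthlh were Spcs2, Smim14 and Snrnp35, each between 0.996 and 0.998, and 284 rows reached 0.95. By litter differences the nearest were Lin37, Rps19bp1 and Timm10, at distances of 0.0438 to 0.0660. For Pth1r they were Romo1, Naa38 and Acbd6 by correlation, each between 0.994 and 0.997, with 294 rows at 0.95 or more. By litter differences Pth1r lay nearest to Ddx28, Fgf18 and Dok1, at distances of 0.0318 to 0.0330. Fgf18, a growth factor that acts on growth plate chondrocytes, was at 13.7, 24.7 and 20.3 FPKM in mutants, against 16.6, 30.4 and 19.0 FPKM in controls. These likenesses are descriptions of 6 columns and had no test.

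None of the 3 loop genes was among the 1352 symbols of a deposited list whose name calls them directly repressed by Shox2. Of the 148 matched list genes used here, 14 were, or 9.46%, against 1256 of the 23809 distinct names in the table, or 5.28%. The sets are unlike, as 5246 of the 24102 rows, but no matched list gene, were at 0 in every column. The list genes were also chosen with earlier results of these data known. No test of the difference in shares was run. The 14 held Gli3, Sox5, Sik2 and Col10a1, among others, named here after the overlap was seen. No label or header says how those symbols were chosen.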

How the data were processed

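RNA sequencing of sorted limb cells was available as a table with 3 mutant and 3 control columns. Per the submitters' processing notes, TopHat and Cuffdiff were used with mm9. Their versions, the annotation and any filter were not given in the sources used here. The authors normalised values, per the file headers, by Cuffdiff's geometric method, stated per litter. The deposited values were read as FPKM because Cuffdiff reports that unit. Column sums ran from 347708 to 439109 FPKM, which is no measure of depth. The other deposited file holds symbols with no values.

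Mutants were compared with controls with limma 3.58.1 (R 4.3.3, variance trend on the mean level) on log2(FPKM + 1), in 12314 rows with 1 FPKM or more in at least 3 columns. All 3 loop genes passed this filter. Adding 1 shrinks the fold change of a gene with low values. Benjamini-Hochberg adjustment ran over all rows, with a threshold of 0.05. The p-values measure the spread between columns, which nothing in the labels says came from separate embryos. The fit was tested on simulated data. Litter numbers pair the columns, per the descriptions in the labels. Deviations from group means correlated at 0.87, 0.57 and 0.77 within litters 1, 2 and 3, and at 0.17 or less across litters. Alternatives were other filters, pseudocounts of 0.1 and 0.5, quantile and median scaling, column weights, the litter block, and leaving out columns or litters.

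The genes and the 13 lists, with 148 of 152 symbols matched and 2 of them by a RefSeq synonym, were chosen with earlier results of these data known. Genes named were the 3 loop genes, Shox2, the ligand and receptor family, up to 5 tested members with the smallest p of each list that holds no cell type markers, and the rows nearest to each loop gene. Col10a1, Mmp13, Prrx1, Eif2s3y, Xist, Kdr, Emcn, Esam, Gli1, Hhip and Col2a1 were named besides these after their values were seen. A gene that the rule names is not reported here.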

Additional observations from a re-analysis of the deposited data

How the results depend on the processing

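Ihh kept its direction under 19 alternatives, with log2 changes from -1.28 to -0.52, the first with a pseudocount of 0.1. Without the litter 2 pair the blocked fit passed 21 of the named genes, Ihh among them, and 4.34% of all rows. Many of the named genes had been picked for a small p in these same data. Without litter 3 the blocked fit passed Shox2 and Enpp2, column weights passed Panx3 and Gdf5, and leaving out mutant 3 passed Shox2. Panx3 is also among the 21 passed without the litter 2 pair. It entered the test through the 3 controls only, so its direction was fixed by the filter. The adjusted p of Ihh passed only in the blocked fit without the litter 2 pair, at -0.86, and leaving out single columns or litters gave -1.19 to -0.52. Ihh and Pthlh gave no value at a mean of at least 5 FPKM. With litter as a replicate block the changes of Ihh, Pthlh and Pth1r were -0.82, -0.25 and -0.14, and the block changed no call of a named gene or list. Leaving out columns gave -0.51 to 0.077 for Pthlh, 0.024 without litter 2 in both fits, and -0.23 to 0.019 for Pth1r, with -0.26 without litter 3. Column weights turned Pth1r to 0.041.

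The number of rows called was 0 in the reported fit, 15 with column weights and 0 to 534 when columns or litters were left out. It was 1 without control 3, 1 without mutant 3, and, in blocked fits, 534 without litter 2 and 36 without litter 3. The blocked fit without litter 1, which leaves out as many columns as these blocked fits, called 0 rows. The cause of the differences in rows called was not tested.

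Column weights also turned 6 rows near Pthlh or Pth1r, with log2 changes of 0.063 for Snrnp35, 0.075 for Romo1, 0.064 for Naa38, 0.063 for Acbd6, 0.16 for Fgf18 and 0.012 for Dok1. Leaving out single columns gave -0.14 to 0.54 for Sik2, -0.35 to 0.037 for Spcs2, -0.32 to 0.011 for Smim14, -0.36 to 0.12 for Snrnp35, -0.45 to 0.033 for Lin37 and -0.49 to 0.040 for Rps19bp1. It gave -0.29 to 0.047 for Romo1, -0.28 to 0.029 for Naa38, -0.26 to 0.044 for Acbd6 and -0.33 to 0.098 for Fgf18. Without litter 2, with or without the block, the changes were -0.17 for Sik2, 0.078 for Snrnp35, 0.023 for Lin37 and 0.00635 for Rps19bp1. Of 1012 alternative values of 51 named genes outside the loop, 960 kept their direction and side of the threshold, 25 newly passed it and 27 turned. Of 259 medians of 13 lists, 9 moved by more than the spread, among them the median for regulators of Ihh, 0.13 with column weights, and that for the hypertrophic zone, -0.87 with a pseudocount of 0.1. Litter pairs were left out of the unblocked fit as an alternative chosen after seeing the data.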
